A study of Mus musculus with 12 samples.

Results

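The mRNAs of the nuclear-encoded subunits of respiratory complex I (NADH:ubiquinone oxidoreductase) were followed across 12 RNA-seq libraries of mouse embryonic fibroblasts. Members were taken by symbol, as every gene named Ndufa, Ndufb, Ndufc, Ndufs, Ndufv or Ndufab followed by a number, which leaves out the Ndufaf assembly factors. The rule found 37 of the 25117 symbols in the deposited table, and all 37 were among the 12653 genes tested, those with at least 1 TPM in at least 3 libraries. Of the 37, 36 are complex I subunits by present knowledge, and Ndufa4, although named as one, is a subunit of complex IV and is given apart. Ndufb1 and the subunits encoded by mitochondrial DNA were not analysed here.

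All fibroblasts carried Rbbp5 (flox/flox) with Rosa26 CRE (+/+), so the controls hold the same floxed alleles and recombinase as the cells labelled KO. RBBP5 is a shared subunit of the complexes that methylate lysine 4 of histone H3. Cells labelled KO had tamoxifen for 7 days and cells labelled wildtype had none, so an effect of tamoxifen or of active Cre cannot be told apart from the loss of RBBP5. Each kind was then held for 16 hours in full DMEM with serum or in EBSS (Earle's balanced salt solution, used to starve cells of amino acids and serum). This gave 4 groups of 3 libraries. Replicates are numbered in the sample titles with the tag brep, which may stand for biological replicate. Nothing says how the cultures were set up, so p-values measure the spread between these libraries, which may be technical. Values are TPM, the authors' length-corrected share of each library's transcripts, scaled to a fixed total, and a log2 change is a difference of log2(TPM + 1), which understates the change of low genes. Read depth is unknown because TPM keeps none.

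Complex I takes electrons from NADH, passes them over a flavin and a chain of iron-sulfur clusters to ubiquinone, and pumps protons across the inner mitochondrial membrane. It is built as an L. The N module at the tip of the peripheral arm oxidises NADH, the Q module below it reduces ubiquinone, and the membrane arm holds the pump, with a proximal part next to the Q module and a distal part at its far end. A few core subunits carry out the reaction and are shared with bacteria, and the many supernumerary subunits stabilise and help to assemble the complex. YY1, NRF1 and the ETS factor GABP are known regulators of nuclear genes for the respiratory chain.

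Promoter sequences of 300 bases, from 250 before to 50 after the transcription start, were at hand for 33 of the 37 members (RefSeq, build GRCm38.p6). Both strands were searched for 6 fixed strings of letters. The string AAGATGGC, the core of the YY1 motif, was in 7 of the 33 (21.2%), in 5.3% of the 10008 promoters of tested genes and in 3.2% of all 27025. All 7 matches lay on the coding strand, between bases 23 and 39 after the start. They are shown because they share both letters and place, with the 8 letters in capitals, 5′ to 3′.
Ndufa3 (chr7:3617384-3617413, plus strand): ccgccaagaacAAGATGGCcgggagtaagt
Ndufa9 (chr6:126849097-126849126, minus strand): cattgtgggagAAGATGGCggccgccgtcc
Ndufb8 (chr19:44555393-44555422, minus strand): tgaaccgcggagaaggtgAAGATGGCtgcc
Ndufc1 (chr3:51408915-51408944, minus strand): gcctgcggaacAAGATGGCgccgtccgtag
Ndufs4 (chr13:114388045-114388074, minus strand): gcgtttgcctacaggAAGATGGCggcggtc
Ndufs6 (chr13:73328433-73328462, minus strand): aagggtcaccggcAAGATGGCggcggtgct
Ndufs7 (chr10:80249462-80249491, plus strand): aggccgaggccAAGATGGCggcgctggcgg

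The NRF1 string GCATGCGC was in 3 members (9.1%, against 6.0% of the promoters of tested genes). A longer NRF1 string, made of it and its reverse complement in overlap, was in 1 member, Ndufa11 (3.0%, against 2.3%). The ETS string CCGGAAG was in 4 members (12.1%, against 20.5%), CCAAT in 10 (30.3%, against 43.6%) and TATAAA in 4 (12.1%, against 8.9%). The members' promoters had a median GC content of 59.0%, against 61.0% for tested genes. The longer match of Ndufa11 stands 60 bases before its start, with the matched letters in capitals.
Ndufa11 (chr17:56717692-56717721, plus strand): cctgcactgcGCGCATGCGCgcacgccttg

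The upstream sequences of Ndufv3 and Ndufb10, the members with the largest rises in KO cells in full medium, and of Ndufc2, the only one called lower there, are given for comparison. They end before the first transcribed base of both RefSeq and GENCODE, and capitals mark CCAAT on either strand. Ndufv3 and Ndufc2 each hold 1 such match here, and Ndufb10 holds none of the 6 strings.
Ndufv3 (chr17:31519865-31520114, plus strand): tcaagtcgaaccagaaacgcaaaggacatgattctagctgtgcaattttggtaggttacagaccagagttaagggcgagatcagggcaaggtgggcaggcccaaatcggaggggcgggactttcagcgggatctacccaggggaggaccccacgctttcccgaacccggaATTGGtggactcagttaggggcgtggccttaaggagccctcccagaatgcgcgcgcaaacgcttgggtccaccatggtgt
Ndufb10 (chr17:24724479-24724673, minus strand): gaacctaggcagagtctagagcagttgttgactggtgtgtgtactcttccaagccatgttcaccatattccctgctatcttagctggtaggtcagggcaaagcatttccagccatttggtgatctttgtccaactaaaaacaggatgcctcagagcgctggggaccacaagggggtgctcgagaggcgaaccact
Ndufc2 (chr7:97399753-97400002, plus strand): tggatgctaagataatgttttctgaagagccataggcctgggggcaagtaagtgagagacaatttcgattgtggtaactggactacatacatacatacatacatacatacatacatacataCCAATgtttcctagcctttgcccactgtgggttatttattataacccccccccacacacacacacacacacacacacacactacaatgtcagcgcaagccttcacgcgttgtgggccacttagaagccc

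Before the comparisons, the labels were checked with the targeted gene. Rbbp5 stood at 26.2, 25.7 and 26.2 TPM in wildtype and 7.47, 9.34 and 8.31 TPM in KO libraries in full medium. It stood at 12.4, 14.0 and 11.8 TPM in the libraries labelled wildtype, EBSS and at 31.9, 24.6 and 23.0 TPM in those labelled KO, EBSS. The gene was thus low under the KO label in full medium and at the level of wildtype cells under the KO label in EBSS, with no overlap of the groups in either medium. The log2 change of labelled KO against labelled wildtype was −1.53 (SE 0.13, limma adjusted p = 3.4e-06) in full medium and 0.99 (SE 0.13, limma adjusted p = 3.2e-05) in EBSS, the latter 0.08 (limma adjusted p = 0.56) after median-of-ratios scaling and −0.044 (limma adjusted p = 0.79) relative to genes of like length. In these settings the gene was not called lower under the KO label in EBSS. Every direction drawn below between or with EBSS groups rests on labels in doubt, and these groups are named only by their labels.

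The libraries labelled wildtype, EBSS also stood apart in composition. The ribosomal protein share of TPM was 32.8% to 35.4%, against 15.2% to 19.3% in the other 9 libraries, the median over tested genes was 10.1 to 10.5 TPM against 17.5 to 23.0, and replicate 3 listed 1122 tested genes at 0 against 12 to 229 in the other 11. RNAs without a poly(A) tail (3 of 3 measured) summed to 3249 to 4439 TPM there, against 74.2 to 283 elsewhere. Because of this shift each count is given as deposited and after median-of-ratios scaling, which divides a library by the median ratio of its genes to their means over all libraries (size factors of 0.596 to 0.642 there and 1.03 to 1.27 elsewhere).

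Composition and cell type markers also differed between KO and wildtype in full medium, beside the rise of complex I mRNAs described next. The ribosomal protein share was 17.2% to 19.3% in KO against 15.2% to 15.5% in wildtype libraries, the median over tested genes 17.5 to 19.8 against 22.5 to 22.9 TPM, and RNAs without a poly(A) tail summed to 183 to 283 against 74.2 to 76.4 TPM. The 10 fibroblast markers summed to 6523 to 7183 TPM in KO and 9032 to 9299 TPM in wildtype. Vim, at 3090 ± 127 and 2840 ± 47.8 TPM (mean ± SD, n = 3), and S100a4, at 2001 ± 125 and 1911 ± 120 TPM, were near their wildtype level, while collagen genes, Dcn and Pdgfra were far lower in KO, with Col3a1 at 41.1 ± 10.8 against 606 ± 17.3 TPM, Col1a1 at 265 ± 54.3 against 1051 ± 4.88 TPM, Dcn at 23.3 ± 1.72 against 156.6 ± 0.375 TPM and Pdgfra at 0.238 ± 0.0222 against 10.6 ± 0.326 TPM. The 6 macrophage markers summed to 63.8 to 68.7 TPM in KO and 28.6 to 29.7 TPM in wildtype, with Cd68 higher (58.5 against 16.3 TPM on average), Cd14 lower (3.45 against 11.9 TPM) and Adgre1 at 0 in wildtype. The 6 skeletal muscle markers summed to 55.4 to 69.9 and 3.40 to 4.41 TPM, mostly Acta1 in KO, with Myod1 and Ckm at 0 in wildtype. The 6 epithelial markers summed to 248 to 284 and 159.5 to 174 TPM, mostly Krt19, while Krt18, Cdh1 and Epcam had lower means in KO, at 0.864, 0.159 and 0.0345 TPM against 1.52, 0.258 and 0.142 TPM. The endothelial list summed to 0.874 to 1.18 and 3.31 to 3.57 TPM, the adipocyte list to 54.0 to 66.4 and 51.9 to 65.8 TPM, and the brown adipocyte list to at most 0.427 TPM in either. The part of these differences in the rise of complex I mRNAs was not tested.

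In wildtype cells in full medium the 36 complex I mRNAs were all well expressed, at a median of 159.3 TPM. Ndufa11, a small membrane-arm subunit, was the lowest at 29.7 ± 0.934 TPM (mean ± SD, n = 3), and Ndufa2, at the N module, the highest at 375 ± 6.0 TPM, a 12.7-fold range. TPM is corrected for length, so these levels can be set side by side as far as that correction holds. Members with overlapping genes or copies, given below, are less certain. Although the subunits meet in fixed numbers in the complex, their mRNAs thus stood at unequal levels, and the range was similar in the other groups, at 12.8-fold in KO in full medium, 16.2-fold in labelled wildtype, EBSS and 11.2-fold in labelled KO, EBSS. The order of the 36 mRNAs was largely kept, with a Spearman correlation of group means across genes of 0.86 for the 2 genotypes in full medium and 0.94 for wildtype in full medium and labelled KO, EBSS, given as a description because the genes share their libraries.

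Summed over the 36 subunits, complex I mRNA made up 6135, 6267 and 6252 TPM in the wildtype libraries in full medium and 11253, 10091 and 10198 TPM in the KO libraries. In EBSS it made up 4662, 4915 and 4518 TPM under the wildtype label and 6533, 6601 and 6671 TPM under the KO label. KO in full medium was above every other library, 1.69-fold over wildtype by the group means, and labelled KO, EBSS lay 1.06-fold over wildtype in full medium. With median-of-ratios scaling the sums were 5001 ± 64.1, 9668 ± 1122, 7564 ± 459 and 5457 ± 273 (mean ± SD, n = 3) in the same order, so KO in full medium stayed on top while labelled wildtype, EBSS moved from the lowest to the second place. By single gene, KO in full medium had the highest group mean for 32 of the 37 members as deposited and 27 scaled, and labelled wildtype, EBSS the lowest for 30 as deposited and 5 scaled (Ndufab1, Ndufb4, Ndufs1, Ndufs3 and Ndufv2). The highest group mean of any of the 36 was that of Ndufb7, an intermembrane-space subunit of the distal arm, which stood at 788, 629.9 and 686 TPM in the KO libraries and 312, 337 and 341 TPM in the wildtype libraries of full medium. An exact permutation test of 3 libraries against 3 cannot go below p = 0.10, so no p is given for sums.

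**Figure D1:**
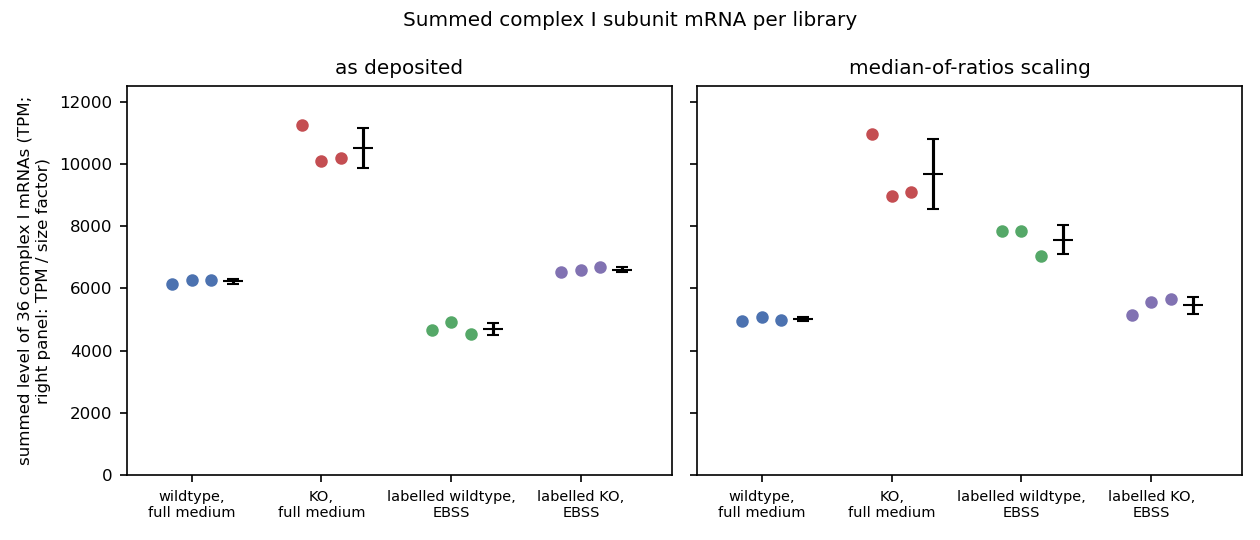
Summed level of the 36 complex I mRNAs in each library (points), with the group mean and SD (n = 3) beside them, as deposited in TPM (left) and divided by the median-of-ratios size factor (right). The 3 KO libraries in full medium are the highest in both panels, and labelled wildtype, EBSS is lowest only on the left.

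KO against wildtype in full medium compares fed cells, with RBBP5 loss joined to tamoxifen and active Cre in the KO libraries. Of the 37 members, 32 were called higher, 1 was called lower and 4 were not called, while 20.1% of all tested genes rose and 35.8% fell (55.9% called in all). The members' median change was 0.61, against −0.17 over all tested genes. After median-of-ratios scaling the same 32 rose and 0 fell (limma, 1 at an unadjusted p under 0.05), with 26.8% of all genes higher and 27% lower (53.7% called), and the members' median was 0.80 against 0.01. Subunits of every region of the complex were among the 32, with changes of up to 1.84 on the log2 scale.

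**Figure D2:**
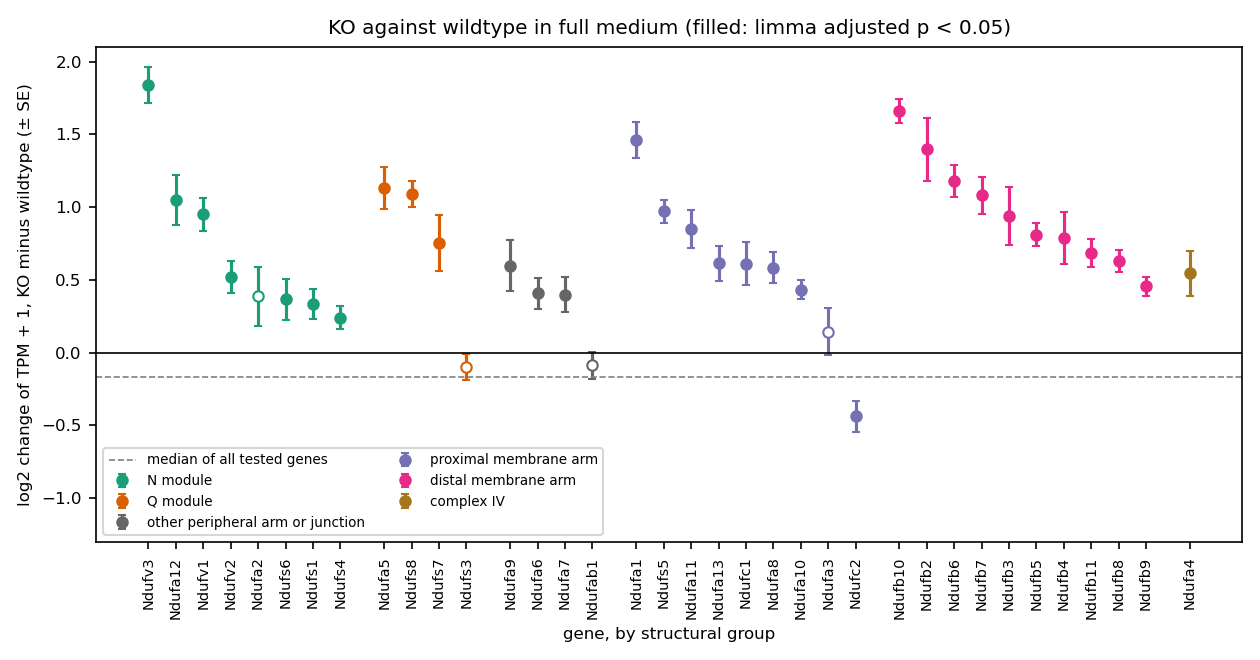
Log2 change of TPM + 1, KO minus wildtype in full medium, for 36 of the 37 members by structural group, with its SE (3 libraries per group). Filled points passed limma's adjusted p of 0.05, the dashed line is the median of all tested genes, and all 10 distal membrane arm genes lie above 0.

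In the N module, which oxidises NADH, 7 of 8 genes rose and none fell (median 0.45). Ndufv3, a supernumerary subunit of the tip of the arm, was at 97.7, 113 and 105 TPM in wildtype and 435, 349 and 358 TPM in KO. All KO libraries were far above every wildtype library, and the change was the largest of all members, 1.84 (SE 0.12, limma adjusted p = 5.7e-07).

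Ndufv1, the core subunit that binds NADH and the flavin, was at 148, 144 and 149 TPM in wildtype and 287, 273 and 295 TPM in KO, a change of 0.95 (SE 0.11, limma adjusted p = 3.2e-05). Ndufv2, its core partner with an iron-sulfur cluster, was at 122, 115 and 127 and 199, 181 and 147 TPM, a change of 0.52 (SE 0.11, limma adjusted p = 0.0018). Ndufs1, the largest core subunit, which carries further clusters, was at 60.0, 59.9 and 61.6 and 73.0, 80.3 and 76.5 TPM, a change of 0.33 (SE 0.10, limma adjusted p = 0.016). For all 3 core genes of the module the KO libraries lay above the wildtype libraries, but the rise of Ndufs1 was small, and its call was lost without replicate 2 of KO in full medium (limma adjusted p = 0.055). Among the other supernumerary members, Ndufa12 rose by 1.05, Ndufs6 by 0.37 and Ndufs4, the gene whose loss in mice gives a Leigh-like disease, by 0.24, while Ndufa2 at 0.39 did not pass (limma adjusted p = 0.13).

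In the Q module, 4 of 5 genes rose and none fell (median 0.75). Ndufs8, a core subunit that holds clusters of the electron path, was at 162, 164 and 164 TPM in wildtype and 386, 324 and 340.5 TPM in KO, a change of 1.09 (SE 0.09, limma adjusted p = 2.9e-06). Ndufs7, which carries the last cluster before ubiquinone, was at 180.0, 162 and 167 and 314, 249 and 300.4 TPM, a change of 0.75 (SE 0.19, limma adjusted p = 0.0062). Both were well separated between the groups. Ndufs3, a core subunit without a cluster, was at 159, 149.9 and 156 and 149.6, 135 and 150.3 TPM, a change of −0.10 (SE 0.09, limma adjusted p = 0.36). The libraries of Ndufs3 overlapped between the groups. The supernumerary Ndufa5, at 212, 204 and 199 TPM in wildtype and 508, 466 and 385 TPM in KO, rose by 1.13 (limma adjusted p = 5.1e-05). The core genes of 1 catalytic module thus spanned from no call to a rise of 1.09.

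Of the 4 genes of the remaining peripheral arm and its junction with the membrane, Ndufa9, Ndufa6 and Ndufa7 rose by 0.60, 0.41 and 0.40. Ndufab1, the mitochondrial acyl carrier protein, which also serves fatty acid synthesis in the organelle, was at 188, 192 and 206 TPM in wildtype and 192, 173 and 186 TPM in KO. The groups overlapped, with a change of −0.09 (SE 0.09, limma adjusted p = 0.44).

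In the proximal membrane arm 7 of 9 genes rose, 1 fell and 1 did not pass (median 0.61). Ndufa1, a small X-linked subunit needed for assembly, was at 219, 261 and 234 TPM in wildtype and 660.3, 635 and 669 TPM in KO, a change of 1.46 (SE 0.12, limma adjusted p = 2.5e-06). The KO libraries were tightly grouped and far above the wildtype ones. Ndufs5, Ndufa11, Ndufa13, Ndufc1, Ndufa8 and Ndufa10 rose by 0.97, 0.85, 0.61, 0.61, 0.58 and 0.43, and Ndufa3 stood at 0.14 (limma adjusted p = 0.48). Ndufc2, another small membrane-spanning subunit, went the other way, at 121, 121 and 138 TPM in wildtype and 101, 93.2 and 85.2 TPM in KO. Its groups did not overlap, and the change was −0.44 (SE 0.11, limma adjusted p = 0.0044), but after median-of-ratios scaling it was −0.25 and no longer called (limma adjusted p = 0.076).

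All 10 measured genes of the distal membrane arm rose, with a median of 0.87, the highest of the 5 structural groups, and their summed level went from 1822, 1819.6 and 1880.3 TPM in wildtype to 3773, 3465 and 3422 TPM in KO, 1.93-fold. Ndufb10, a subunit with paired disulfides that faces the intermembrane space, was at 205, 216 and 222 TPM in wildtype and 724, 708 and 609.7 TPM in KO, a change of 1.66 (SE 0.08, limma adjusted p = 1e-07). Ndufb2 was at 60.3, 49.0 and 27.4 TPM and 118, 104 and 126 TPM, a change of 1.40 (SE 0.22, limma adjusted p = 0.00024). Ndufb10 was tight in wildtype, while Ndufb2 varied more between wildtype libraries, relative to its mean, than any other member, and neither overlapped. Ndufb6 rose by 1.18, Ndufb7 by 1.08, Ndufb3 by 0.94, Ndufb5 by 0.81, Ndufb4 by 0.79, Ndufb11 by 0.68, Ndufb8 by 0.63 and Ndufb9 by 0.46. The difference between the structural groups was not tested.

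Ndufa4, the complex IV subunit, was at 668, 609.7 and 658 TPM in wildtype and 1051, 869 and 910.4 TPM in KO, a change of 0.54 (SE 0.15, limma adjusted p = 0.0099), which relative to genes of like length was 0.31 and not called (limma adjusted p = 0.10). Of 38 subunits of complexes II to V, 23 rose, 4 fell and 11 did not pass (median 0.45), and with scaling 25 rose and 2 fell, led by Cox6a1 of complex IV at 1.46 (limma adjusted p = 9.7e-07), with the largest fall in Atp5g2, a c-subunit gene of ATP synthase, at −0.84 (limma adjusted p = 0.0008). Complex I mRNA rose 1.69-fold and that of complexes II to V 1.41-fold in summed level, a difference that was not tested. Of 19 assembly factors of complex I, which chaperone the growing complex and leave it, 7 rose, 2 fell and 10 did not pass (median 0.21), and with scaling 8 rose and 2 fell. Ndufaf2, the assembly factor related to Ndufa12, was at 43.0, 66.1 and 56.8 TPM in wildtype and 139, 156 and 124 TPM in KO, a change of 1.34 (SE 0.24, limma adjusted p = 0.00069), and Tmem70 stood at −0.80 (limma adjusted p = 0.00014). Of 15 genes of iron-sulfur cluster assembly, 7 rose, 1 fell and 7 did not pass, with Lyrm4 at 1.34 and Fdx2 at −0.55. Among 12 tested regulators of mitochondrial biogenesis, 5 rose, 2 fell and 5 did not pass. The counts of these lists stand beside 20.1% of all tested genes higher and 35.8% lower (26.8% and 27% scaled).

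The coactivator gene Ppargc1a was at 0.930, 0.857 and 0.813 TPM in wildtype and 4.90, 6.08 and 5.10 TPM in KO, a change of 1.76 (SE 0.19, limma adjusted p = 1.4e-05). The largest fall among the regulators was that of Gabpb2, a subunit gene of GABP, at −0.87 (limma adjusted p = 0.00048). Yy1 itself stood at −0.10 (limma adjusted p = 0.46) and Nrf1 at −0.30 (limma adjusted p = 0.28), named here because their motifs were searched. The 7 members with the YY1 string had a median change of 0.60 (0.14 to 0.75) and the 26 without it 0.83 (−0.44 to 1.84), given as a description. In bulk RNA, a change in the number of cells of a type and in RNA per cell cannot be told apart. Members are short, with a median transcript length of 782 bases against 2627 for tested genes and 25 of the 37 among the shortest 10%. When each change was taken relative to genes of like length, 26 members were higher and 1 lower (25.7% and 27.4% of all genes).

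**Figure D3:**
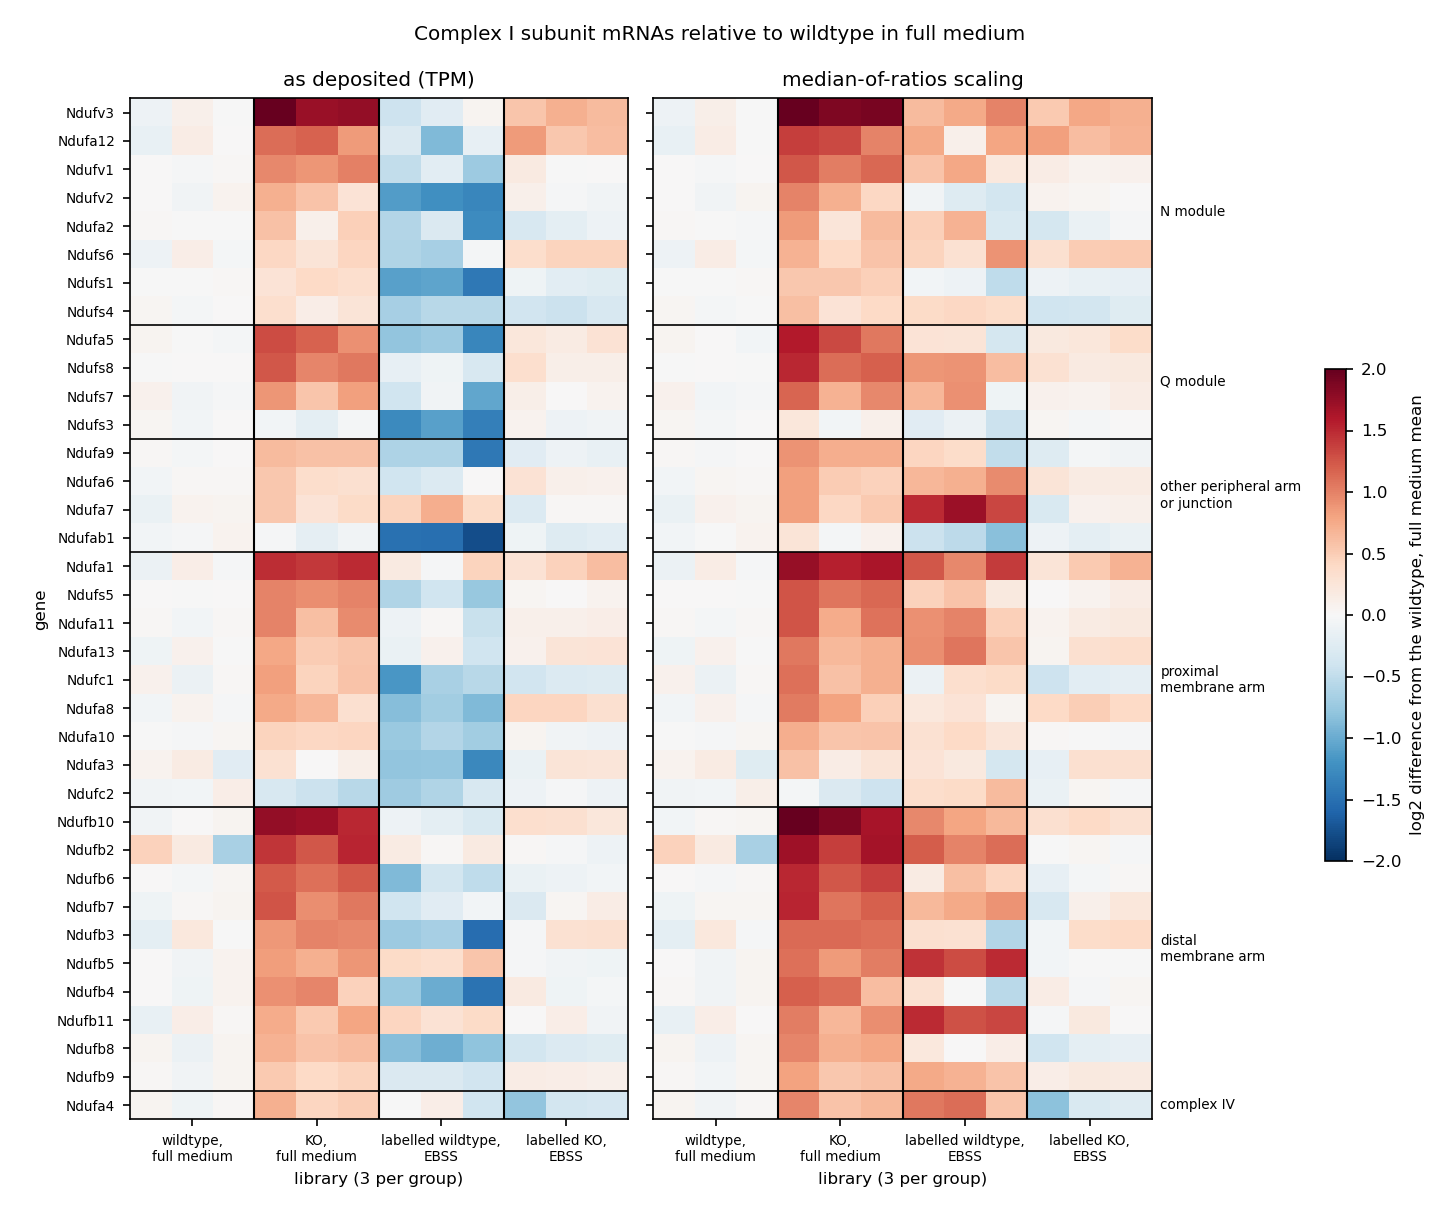
Levels of 36 of the 37 members (rows, by structural group) in each of the 12 libraries (columns, 3 per group), as the difference of log2(value + 1) from the mean of wildtype in full medium, as deposited (left) and with median-of-ratios scaling (right). Red is higher and blue lower; KO in full medium is red for nearly all genes in both panels, labelled KO, EBSS is near white, and labelled wildtype, EBSS turns from mostly blue to mostly red.

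In EBSS, labelled KO against labelled wildtype, 28 members were higher as deposited, 4 lower and 5 not called, beside 71.9% of all tested genes higher and 8.58% lower (80.5% called). The members' median of 0.51 was below the all-gene median of 0.91. With median-of-ratios scaling 2 were higher and 22 lower (34.8% and 29% of all genes, 63.8% called), with a median of −0.45 against 0.10. The balance of higher and lower members therefore turned with the scaling, and 13 members were called in opposite directions: Ndufb9, Ndufs5, Ndufa10, Ndufa6, Ndufc2, Ndufv1, Ndufb10, Ndufb8, Ndufa13, Ndufs8, Ndufc1, Ndufs4 and Ndufb6. Ndufb10, for example, stood at 0.49 as deposited and −0.46 scaled. Fibroblast markers summed to 4778 to 5688 TPM in the labelled wildtype libraries and 5961 to 9089 TPM in the labelled KO libraries. Vim differed little as deposited, at 2465 ± 179 and 2489 ± 447 TPM, whereas Dcn stood at 1.37 ± 0.930 against 145.5 ± 20.6 TPM, Col3a1 at 23.3 ± 0.682 against 560.6 ± 209.9 TPM and Col1a1 at 202 ± 42.8 against 1172 ± 150.2 TPM (mean ± SD, n = 3). Endothelial markers summed to 1.58 to 7.39 against 3.11 to 3.92 TPM. Brown adipocyte markers summed to 2.90 to 4.60 TPM in the labelled wildtype libraries, mostly Ucp1, and to 0.253 to 3.54 TPM in the labelled KO libraries. Macrophage markers summed to 21.7 to 83.8 against 29.7 to 33.3 TPM, muscle markers to 7.94 to 16.4 against 3.77 to 5.93 TPM, epithelial markers to 213 to 229.8 against 100.3 to 145.7 TPM, and adipocyte markers to 10.7 to 20.9 against 49.2 to 63.8 TPM, and their part in these differences was not tested. Single libraries set some of these upper ends. In replicate 3 of labelled wildtype, EBSS, Lyz2 stood at 48.4 TPM, against 2.22 and 2.93 TPM in replicates 1 and 2. Pecam1, an endothelial marker, stood there at 4.48 TPM, against 0.406 and 0.773 TPM. The highest brown adipocyte sum under the KO label was that of replicate 1, with Elovl3 at 3.29 TPM.

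The calls of 6 members had 1 direction under both scalings. Ndufab1 was at 68.8, 68.1 and 56.2 TPM in labelled wildtype and 184, 162 and 169 TPM in labelled KO, a difference of 1.41 (SE 0.09, limma adjusted p = 1.3e-07), and 0.46 scaled. Ndufs3 was at 63.7, 72.3 and 59.4 and 163, 144 and 148 TPM, a difference of 1.21 (SE 0.09, limma adjusted p = 2.7e-07), and 0.26 scaled. Both passed no test between genotypes in full medium, while in EBSS the labelled wildtype libraries were far below all others as deposited. Scaled, the gap was smaller. Ndufs3 then stood at 107, 115 and 92.5 in labelled wildtype and 129, 121 and 125 in labelled KO. Ndufab1 stood at 116, 109 and 87.4 and 145, 137 and 144. Ndufa7, of the peripheral arm, was at 398, 486 and 383 TPM in labelled wildtype and 242, 298 and 299 TPM in labelled KO, a difference of −0.59 (SE 0.12, limma adjusted p = 0.00073), and −1.55 scaled. Ndufb5 was at 114, 109 and 127 and 85.6, 82.6 and 81.6 TPM, a difference of −0.48 (SE 0.08, limma adjusted p = 0.00015), and Ndufb11, an X-linked distal-arm subunit, at −0.35 (limma adjusted p = 0.0061). Ndufa4 of complex IV stood at −0.41 as deposited (limma adjusted p = 0.028) and −1.37 scaled. These 4 were lower under the KO label, and the groups of Ndufa7, Ndufb5 and Ndufb11 did not overlap.

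The core subunits showed the same dependence. As deposited 6 of 7 were higher and 1 was not called. Ndufv2 had the largest difference of the 7, from 55.3, 51.2 and 48.5 to 130.2, 119 and 115 TPM, 1.22 (SE 0.11, limma adjusted p = 1.2e-06), and 0.27 scaled (limma adjusted p = 0.084). With scaling 1 of the 7 was higher (Ndufs3), 3 were lower and 3 were not called. Ndufs8 stood at −0.57 scaled and Ndufv1 at −0.42. Of the companion lists as deposited, 22 of 38 subunits of complexes II to V were higher and 5 lower (2 and 29 scaled), with Uqcrc1 of complex III at 1.54 and Cox4i1 of complex IV at −1.15. Of 19 assembly factors 16 were higher and 0 lower (9 and 3 scaled), led by Tmem186 at 2.15. The counts of core subunits and of both lists stand beside 71.9% of all tested genes higher and 8.58% lower (34.8% and 29% scaled). Relative to genes of like length, 11 members were higher and 10 lower (29.7% and 31.9% of all genes, so near the background), and the members' median relative to all genes was −0.022.

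EBSS against full medium under the wildtype label gave 3 members higher, 24 lower and 10 not called as deposited, beside 9.25% of all genes higher and 71.8% lower (81.1% called), with a median of −0.50 against −0.94. With median-of-ratios scaling 23 were higher and 2 lower (30.3% and 35.7% of all genes, 66.1% called), with a median of 0.50 against −0.10. Both readings place the members above the median of all genes, and the sign of their own change depends on the scaling. That position was nearly lost with quantile normalization and relative to genes of like length, and it reversed without the filter, with values given below. Relative to genes of like length, 12 members were higher and 8 lower (32.9% and 31.4% of all genes). Called in opposite directions were 10 members, Ndufs6, Ndufb9, Ndufs5, Ndufa10, Ndufc2, Ndufv1, Ndufb10, Ndufa12, Ndufs4 and Ndufb6. The deposited call of Ndufb10, at −0.20 (limma adjusted p = 0.046), was lost on leaving out any of the 3 wildtype libraries in full medium, replicate 2 or 3 of labelled wildtype, EBSS, replicate 2 of KO in full medium or replicate 2 or 3 of labelled KO, EBSS (limma adjusted p = 0.052 to 0.14). Ndufa7 was higher under both, at 267, 309.5 and 306 TPM in full medium and 398, 486 and 383 TPM in EBSS, 0.52 (SE 0.12, limma adjusted p = 0.0019), and 1.51 scaled. Ndufb5 and Ndufb11 were also higher under both, at 0.42 and 0.37 as deposited and 1.41 and 1.37 scaled. Ndufab1 (−1.59, −0.60 scaled) and Ndufs3 (−1.24, −0.25 scaled) were lower under both, and Ndufv2, at −1.22 as deposited, was not called scaled (−0.23). A handful of subunits thus left the rest in either direction in these libraries. Ppargc1a stood at 1.10 and Tfam, which packages mitochondrial DNA, at −1.80, among 12 regulators of which 5 were higher and 7 lower (6 and 2 scaled). Of 38 subunits of complexes II to V, 6 were higher and 26 lower (24 and 3 scaled), with Uqcrc2 at −1.44 and Cox4i1 at 1.03. Of 19 assembly factors 0 were higher and 16 lower (4 and 8 scaled), with Ndufaf8 at −2.43. Ndufaf8 was at 49.4, 45.7 and 47.3 TPM in full medium and 21.7, 31.1 and 0 TPM in EBSS. Its value thus leans on the 0 of replicate 3, and with scaling the largest called fall was that of Tmem186.

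EBSS against full medium under the KO label gave 29 members lower, 1 higher and 7 not called, beside 20.9% of all genes lower and 33.3% higher (54.2% called), and the members' median was −0.69 against 0.13. With median-of-ratios scaling 32 were lower and 0 higher (limma, also 0 at an unadjusted p under 0.05, beside 26.2% and 26% of all genes, 52.2% called), and the same 29 were lower under both. All 10 distal-arm genes were lower, with a median of −0.89. Ndufb2 was at 118, 104 and 126 TPM in full medium and 43.9, 42.8 and 40.2 TPM in EBSS, a change of −1.43 (SE 0.22, limma adjusted p = 0.00022). Ndufb10 was at 272, 269 and 250.1 TPM in EBSS, far below its level in KO cells in full medium given above, a change of −1.36 (SE 0.08, limma adjusted p = 3.6e-07). Ndufb6 went from 258, 236 and 257 to 100.006, 102 and 105 TPM, a change of −1.28 (SE 0.11, limma adjusted p = 3.5e-06). None of these 3 overlapped between the media. Of the core subunits 6 of 7 were lower, among them Ndufs8 at −0.90 and Ndufv1 at −0.89, and Ndufs3 stood at 0.06 (limma adjusted p = 0.56). Ndufc2 was higher at 0.36 (limma adjusted p = 0.013), a call lost with scaling (0.22) and without replicate 3 of KO in full medium (limma adjusted p = 0.055). Ndufa4 fell to 372, 501 and 509.9 TPM, a change of −1.04 (SE 0.15, limma adjusted p = 0.00016). Of 38 subunits of complexes II to V, 25 were lower and 2 higher (31 and 1 scaled), with Uqcr11 of complex III at −1.31 and Atp5g2 at 0.67. Ppargc1a, at 1.82, 0.761 and 0.714 TPM in labelled KO, EBSS, stood at −1.63 (limma adjusted p = 2.5e-05). The KO libraries in full medium enter both this comparison and the first, so the 2 do not support each other.

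Because Rbbp5 went against the EBSS labels, groups that differ in both labels were also set side by side. Between labelled KO, EBSS and wildtype in full medium, limma called 0 of 37 members as deposited and scaled (6 higher and 3 lower at an unadjusted p under 0.05 on both scales). Of all 12653 genes, 17 were called (0.134%, with 0.0869% higher and 0.0474% lower), and 0.111% scaled (0.079% higher and 0.0316% lower). The members' median was 0.02 against −0.03, from −0.50 for Ndufa4 to 0.67 for Ndufa12. Ndufv3 was nonetheless higher in every labelled KO, EBSS library (156, 172 and 163 TPM) than in every wildtype library in full medium, a difference of 0.63 (SE 0.12, limma adjusted p = 0.087). The spread is shared with replicate 3 of labelled wildtype, EBSS, and without that library 219 genes were called (1.73%), among them Ndufv3, Ndufs6 and Ndufa1 higher by 0.63, 0.42 and 0.45 and Ndufs4 lower at −0.38 (limma adjusted p = 0.024, 0.036, 0.049 and 0.040). On the libraries of these 2 groups alone 249 genes were called (1.97%), with Ndufv3, Ndufa12 and Ndufa8 higher and Ndufs4 lower. A p that misses the threshold does not show that the 2 groups are alike.

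Labelled wildtype, EBSS against KO in full medium gave 0 members higher, 35 lower and 2 not called as deposited, beside 11.6% of all genes higher and 63.5% lower (75.1% called), with a median of −1.27 against −0.73. At an unadjusted p under 0.05 limma also gave 0 higher members. With median-of-ratios scaling 5 were higher and 21 lower (29.5% and 33.7% of all genes, 63.1% called), and the same 21 were lower under both. Ndufa5 of the Q module was at 119, 123 and 82.7 TPM against 508, 466 and 385 TPM, −2.07 (SE 0.14, limma adjusted p = 2.2e-07), and −1.26 scaled. Ndufv3 stood at −2.04 and −1.23 scaled, and Ndufb3 at −1.91 and −1.11. Their direction was the same under both scalings. Ndufb5 and Ndufb11 were called lower as deposited (−0.39 and −0.31) and higher scaled (0.42 and 0.50).

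The interaction asks whether the KO minus wildtype difference in EBSS departed from that in full medium. As deposited 8 members were called higher, 14 lower and 15 not (64.2% and 12.5% of all genes, 76.7% called), with a median of −0.04 against 1.06. With median-of-ratios scaling 0 were higher (limma, 1 at an unadjusted p under 0.05) and 33 lower (34.1% and 32.8% of all genes, 66.8% called), and the same 14 were lower under both. In the distal arm 6 of 10 were lower and 0 higher as deposited and 10 of 10 lower scaled. The largest were Ndufb2 at −1.56, Ndufb5 at −1.29 and Ndufa1 at −1.21 (limma adjusted p = 0.00068, 1.1e-06 and 5.3e-05). Ndufab1 at 1.49, Ndufs3 at 1.31 and Ndufa3 at 0.93 led the higher calls as deposited (limma adjusted p = 1.1e-06, 2e-06 and 0.0031), and none of the 3 was called scaled (0.35, 0.17 and −0.21). Ndufs6, Ndufa8, Ndufv2 and Ndufs1 were called higher as deposited and lower scaled.

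Ratios within a library do not depend on how libraries are scaled, so each member was also expressed as its share of the summed complex I mRNA. Ndufv3 took 1.69 ± 0.108% in wildtype and 3.61 ± 0.223% in KO in full medium, 1.97 ± 0.383% in labelled wildtype, EBSS and 2.48 ± 0.115% in labelled KO, EBSS (mean ± SD, n = 3). Ndufb10 took 3.45 ± 0.106%, 6.48 ± 0.519%, 3.99 ± 0.278% and 4.0 ± 0.218% in the same order. Both had their largest share in KO in full medium, with no overlap with the other groups. Ndufa7 took 4.73 ± 0.324%, 3.69 ± 0.153%, 8.97 ± 0.80% and 4.23 ± 0.460%, and Ndufb11 2.43 ± 0.208%, 2.32 ± 0.209%, 4.17 ± 0.347% and 2.33 ± 0.183%. The shares of these genes were larger in labelled wildtype, EBSS than in any other library. Ndufs3 took 2.5 ± 0.103%, 1.38 ± 0.0807%, 1.38 ± 0.0797% and 2.30 ± 0.176%, and Ndufab1 3.14 ± 0.131%, 1.75 ± 0.0670%, 1.37 ± 0.117% and 2.61 ± 0.192%. Their shares were low in KO in full medium and in labelled wildtype, EBSS, and high in the other two groups. Ndufc2 was low only in KO in full medium, at 0.885 ± 0.0450% against 2.03 ± 0.149% in wildtype. A share shows unequal change between subunits, not that any one of them did not change.

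**Figure D4:**
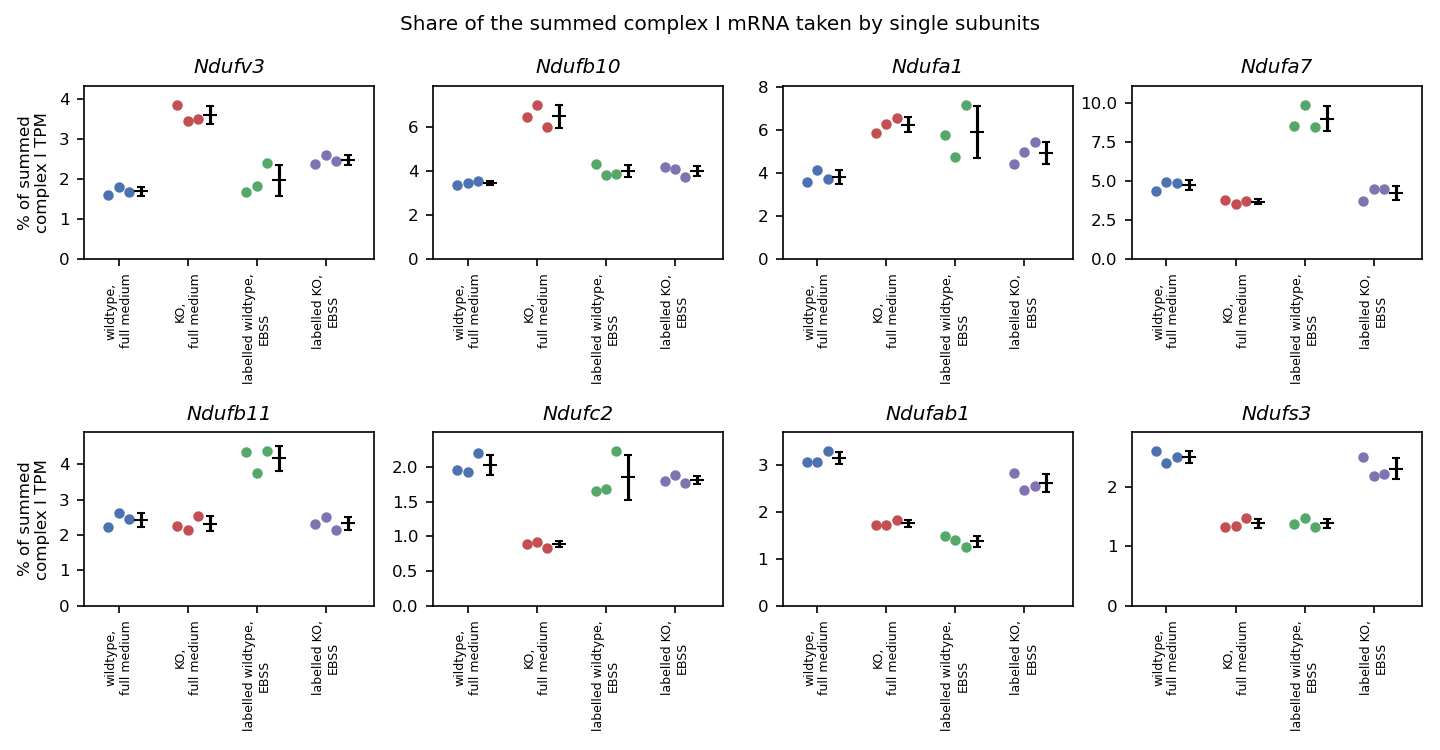
Share of the summed TPM of the 36 complex I mRNAs taken by each of 8 subunits, per library (points) with the group mean and SD (n = 3) beside them, each panel with its own axis from 0. Ndufv3 and Ndufb10 are highest in KO in full medium, Ndufa7 and Ndufb11 in labelled wildtype, EBSS, and Ndufs3 and Ndufab1 are low in both of these groups.

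Several members overlap other genes in GENCODE vM21, with bases counted over whole gene spans, introns included. The strand setting was not stated, and it would bear only on overlaps on the opposite strand. Ndufa13 overlaps Yjefn3 on the same strand over 8379 bases, Ndufb8 overlaps Gm20538 over 4260, Ndufb2 overlaps Gm42420 over 4022 and Ndufb9 overlaps Gm49356 over 3604. On the opposite strand, Ndufs1 overlaps Ino80dos over 14695 bases, Ndufab1 overlaps Gm44986 over 2829 bases, Ndufb5 overlaps Mrpl47 over 616, Ndufb11 overlaps Rbm10 over 117 and Ndufs3 overlaps Kbtbd4 over 88. How many of these bases lie in exons was not examined, so the values of these members are uncertain to an unknown extent.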

How the data were processed

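Poly(A) RNA-seq was deposited as 1 table of TPM per gene symbol for 12 libraries; per the submitters' processing notes the authors used Salmon and mm10, while its version, annotation and strand setting were not given in the sources used here. TPM keeps no read depth, so no counting interval can be given. The deposited columns summed to 92.3% to 94.1% of a full TPM total in labelled wildtype, EBSS and to 98.4% to 99.4% in the other groups. Groups came from the sample labels. Genes with at least 1 TPM in at least 3 libraries were tested on log2(TPM + 1) with limma 3.58.1 (R 4.3.3; lmFit and eBayes with a variance trend, all 12 libraries in 1 fit, 7 contrasts, two-sided), with Benjamini-Hochberg adjustment over all tested genes and a threshold of 0.05. A change is called higher or lower past that threshold, and SE is that of the log2 change. The same fit was run after median-of-ratios scaling. The procedure was tested on simulated data without a shift in composition between groups, so that test does not bear on the choice of scaling. Lengths and overlaps were taken from GENCODE vM21 (GRCm38) and promoters from RefSeq (GRCm38.p6).

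Named with values are the nuclear core subunits, Ndufa4, members called in opposite directions under the scalings, in each comparison up to 3 rises and 3 falls that were called, had a mean of at least 5 TPM in the higher group and did not overlap between groups, and the largest called rise and fall of each companion list; a few others are named to describe their group and were chosen after their values were seen. The counts include 1 member whose own values are not reported here. The members, structural groups, companion and marker lists were chosen with earlier results of these data known. Alternatives covered pseudocounts of 0.1 and 0.5, the filter, quantile normalization, leaving out ribosomal protein genes, a transcript-length adjustment, the libraries of a comparison alone, no variance trend, a replicate block, and fits without each of the libraries.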

Additional observations from a re-analysis of the deposited data

Results flagged for a closer look

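The genotype difference itself differed between the media, by the limma interaction term, for 22 of the 37 members as deposited, 8 higher and 14 lower. That is a smaller share than the 76.7% of all tested genes called, of which 64.2% were higher and 12.5% lower, as shares of all genes. With median-of-ratios scaling 0 members were higher and 33 lower, beside 34.1% and 32.8% of all genes. The named members were Ndufab1 at 1.49, Ndufs3 at 1.31 and Ndufa3 at 0.93, and Ndufb2 at −1.56, Ndufb5 at −1.29 and Ndufa1 at −1.21 on the log2 scale. With median-of-ratios scaling the 3 falls remained called and the 3 rises did not. Each of these values rests on the EBSS labels, which Rbbp5 did not follow.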

How the results depend on the processing

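The rise of members in KO cells in full medium kept its direction under every alternative run. Members higher numbered 29 to 33 with 1 library left out in turn and 32 with the replicate block. The count was 26 with the length adjustment (25.7% of all genes). Members lower there numbered 0 with median-of-ratios scaling. The members' median relative to that of all genes, 0.78, became 0.62 without a filter on low values, 0.57 with quantile normalization and 0.52 with the length adjustment.

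For labelled KO against labelled wildtype in EBSS, members higher and lower numbered 2 and 22 with median-of-ratios scaling, 8 and 8 with quantile normalization, 13 and 7 without ribosomal protein genes, and 11 and 10 with the length adjustment. Of all genes, 34.8% and 29%, 31.6% and 29.9%, 56.5% and 14.7%, and 29.7% and 31.9% were called in the same order. The relative median, −0.40, was −0.57 with a pseudocount of 0.1, 0.18 without the filter, −0.55 with median-of-ratios scaling, −0.013 with quantile normalization, −0.50 without ribosomal protein genes and −0.022 with the length adjustment. For EBSS against full medium under the wildtype label the counts were, in the same order, 23 and 2, 12 and 9, 9 and 12, and 12 and 8, beside 30.3% and 35.7%, 30.8% and 33.2%, 15.6% and 57.2%, and 32.9% and 31.4% of all genes. The relative median there, 0.44, was 0.62 with a pseudocount of 0.1, −0.19 without the filter, 0.59 scaled, 0.070 with quantile normalization, 0.54 without ribosomal protein genes, 0.018 with the length adjustment and 0.35 to 0.46 with 1 library left out. Under the KO label members higher in EBSS numbered 0 scaled and 0 to 1 with 1 library left out (0 without replicate 3 of KO in full medium), and the relative median, −0.82, was −0.70 without the filter, −0.66 with quantile normalization, −0.56 with the length adjustment and −0.89 to −0.72 with 1 library left out.

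Between labelled KO, EBSS and wildtype in full medium, 1 member was higher with quantile normalization (0.292% of all genes), 3 higher and 1 lower on the libraries of the comparison alone (0.553% and 1.41%), and 0 to 3 higher and 0 to 1 lower with 1 library left out. Leaving out replicate 3 of labelled wildtype, EBSS and replicate 1 of labelled KO, EBSS together, an alternative chosen after seeing the data, gave 3 higher and 3 lower, with 730 genes called in all (5.77%, against 0.134% with all libraries). Between labelled wildtype, EBSS and KO in full medium, members higher numbered 5 scaled, 3 with quantile normalization, 2 without ribosomal protein genes and 5 with the length adjustment (29.5%, 29%, 18% and 32.7% of all genes), and 21 were lower scaled (33.7%); the relative median, −0.54, was −0.40 with a pseudocount of 0.1, −1.08 without the filter, −0.41 scaled, −0.68 with quantile normalization and −0.64 to −0.45 with 1 library left out. For the interaction, members higher numbered 0 scaled, 3 with quantile normalization, 3 without ribosomal protein genes and 4 with the length adjustment (34.1%, 32.2%, 51.9% and 31.3% of all genes), and members lower 33, 23 and 23 under the first 3 (32.8%, 34.3% and 18.9%); the relative median, −1.10, was −1.28 with a pseudocount of 0.1, −0.31 without the filter, −1.24 scaled, −0.68 with quantile normalization, −1.20 without ribosomal protein genes and −0.53 with the length adjustment. The interaction has no fit on the libraries of a comparison alone, since it uses all 12.

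Of the single values called as deposited, some changed sign. They were the interaction of Ndufa3 scaled (−0.21), Rbbp5 in EBSS with the length adjustment (−0.044), and Ndufb10 between the EBSS groups scaled (−0.46) and with the length adjustment (−0.0094). Ndufb10 in EBSS against full medium under the wildtype label also did, scaled (0.80), with quantile normalization (0.24), without ribosomal protein genes (0.25) and with the length adjustment (0.26). Of the other values of named genes under an alternative, 938 stayed called or stayed uncalled, and 32 kept direction and lost the call. Values not called as deposited could change sign among the 938, as Ndufs3 between the genotypes in full medium did scaled (0.090). The cause was not tested. Sample numbers did not pair the libraries (correlations of deviations −0.073 to 0.079), and with a replicate block the members higher and lower in EBSS between the labels numbered 27 and 4 and all other counts were those without it. Depth cannot be read from TPM, so low values carry an unknown counting error.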

Other observations

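Related sequences outside the rule were also listed. Ndufs5-ps, a pseudogene of Ndufs5, was at 1.42 ± 0.917 TPM (wildtype) and 11.2 ± 3.6 TPM (KO) in full medium, 8.36 ± 2.96 TPM in labelled wildtype, EBSS and 15.2 ± 1.89 TPM in labelled KO, EBSS (mean ± SD, n = 3). Ndufb4c, a copy of Ndufb4, was at 37.1, 56.1 and 59.1 TPM (wildtype) and 94.3, 75.1 and 122 TPM (KO) in full medium, and at 13.2, 32.4 and 105 TPM in labelled wildtype, EBSS and 26.8, 36.6 and 34.5 TPM in labelled KO, EBSS. Reads of such copies and of their parent genes may be shared, so Ndufs5 and Ndufb4 are uncertain to that extent. Ndufa4l2, the paralog of Ndufa4 known from hypoxic cells, was under 1 TPM in all 12 libraries, and Ndufa11b was listed at 0 in all of them.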
